A study of Homo sapiens with 6 samples.

Results

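The cytosolic ribosomal protein genes encode the proteins of the large (RPL) and small (RPS) subunit of the ribosome outside mitochondria. They were chosen by symbol alone: RPL or RPS followed by a digit, the stalk genes RPLP0 to RPLP2, RPSA and FAU, without RPS6K kinases and without pseudogenes. This gave 79 genes, 50 of the large and 29 of the small subunit, with 129 probes, of 20046 named genes and 47231 probes on the array. RPLP0, RPS27A and RPSA had no probe of that name and were not analysed here. The values came from Illumina Human HT-12 v4 BeadChips, on which bead-bound DNA probes capture labelled cRNA. HEK-293T, a human embryonic kidney line, was transduced with RUNX1 lentivirus (3 arrays) or with the MCS control lentivirus (3 arrays) at 10 MOI, selected in 1 µg/ml puromycin and harvested on day 7. Both groups therefore carried a lentivirus and its selection, and no array of untransduced cells was analysed here. The submitters' design note asks whether RUNX1, a transcription factor of blood formation, affects these cells. The arrays within a group are described as biological triplicates, but no label ties them to separate cultures, so the p-values measure only the spread between these samples.

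A ribosome holds a single copy of nearly every one of these proteins, and the P-stalk proteins RPLP1 and RPLP2 are the exception. Cells make their mRNAs in large and matched amounts. Most of the mRNAs begin with a C followed by a run of pyrimidines, the 5′ terminal oligopyrimidine (TOP) tract, through which the mTOR pathway and the La-related protein LARP1 control their translation. Loss of 1 copy of some of these genes, RPS19 among them, causes Diamond-Blackfan anemia, a failure of red cell production. RPL5 and RPL11 bind MDM2 when ribosome assembly is disturbed, and this stabilises p53.

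The start sites are shown first, because the TOP tract is the sequence feature that most of these genes have in common. Each line gives 30 bases of the sense strand from RefSeq (GRCh38.p14), 10 before the annotated start and 20 from it, and capitals mark a tract that opens with C at the start and runs on for at least 4 pyrimidines (C or T). The 4 genes whose arrays did not overlap between the groups come first (the same held for 6.56% of all genes tested). Next are a very bright probe (RPL41), the gene whose brightest probe was the steadiest (RPS24), and parent genes beside their paralogs.
RPL7A, chr9:133348208-133348237, plus strand: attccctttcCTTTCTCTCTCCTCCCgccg
RPS13, chr11:17077648-17077677, minus strand: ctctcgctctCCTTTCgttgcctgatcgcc
RPLP1, chr15:69452808-69452837, plus strand: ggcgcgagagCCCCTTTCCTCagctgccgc
RPL21, chr13:27251548-27251577, plus strand: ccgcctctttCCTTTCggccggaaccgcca
RPL41, chr12:56116623-56116652, plus strand: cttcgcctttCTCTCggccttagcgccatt
RPS24, chr10:78033853-78033882, plus strand: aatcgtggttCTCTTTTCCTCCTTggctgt
RPS27, chr1:153990752-153990781, plus strand: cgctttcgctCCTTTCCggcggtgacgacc
RPS27L, chr15:63157458-63157487, minus strand: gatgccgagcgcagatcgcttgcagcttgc
RPL26, chr17:8383174-8383203, minus strand: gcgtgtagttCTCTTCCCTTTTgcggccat
RPL26L1, chr5:172958719-172958748, plus strand: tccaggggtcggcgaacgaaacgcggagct
RPL36A, chrX:101391001-101391030, plus strand: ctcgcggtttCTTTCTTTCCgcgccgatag
RPL36AL, chr14:49620607-49620636, minus strand: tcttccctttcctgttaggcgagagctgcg
RPL22, chr1:6199576-6199605, minus strand: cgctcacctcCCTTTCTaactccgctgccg
RPL22L1, chr3:170870176-170870205, minus strand: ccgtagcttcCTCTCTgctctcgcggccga
In this set RPS27L, RPL26L1 and RPL36AL had no tract at the annotated start while their parents had one, and RPL22L1 had one like RPL22. With the C allowed within 5 bases of the annotated start, RPL36AL also had a tract, and RPS27L and RPL26L1 did not. RPL7A, RPS13 and RPLP1, which read higher with RUNX1, and RPL21, which read lower, all opened with such a tract. So did 74.6% of the ribosomal protein genes without paralogs (44 of 59 with a start sequence), so a tract was common whatever the difference.

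A start window of 300 bases (250 before and 50 after the start) was matched for 67 of the 79 genes. A gene with several windows was counted where any of them had the feature. Of the 67 genes, 46 (68.7%) had a TOP tract at an annotated start, against 1404 of 27305 genes (5.14%) with a window. Without the paralogs the share was 44 of 59 (74.6%), and among the paralogs it was 2 of 8 (25%). With the C allowed within 5 bases of the annotated start, 54 of the 67 genes (80.6%) had a tract, against 25.2% of all genes. The letters CCGGAA on either strand, the core of many ETS factor sites, were found for 39 of the 67 genes (58.2%), against 20.1% of all genes with a window. On the sense strand this motif can read TTCCGG and then overlaps the end of a pyrimidine tract, as at RPS27. The letters TGTGGT on either strand, the core that RUNX1 and its relatives read, were found for 13 of the 67 genes (19.4%), against 15.6% of all genes with a window. These matches describe the letters in the windows and do not mark sites of binding.

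**Figure D1:**
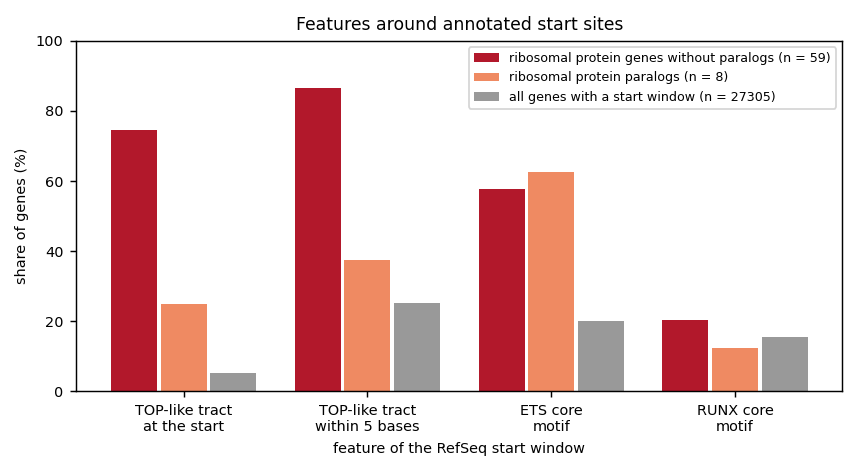
Share of genes (%) with each feature around the annotated RefSeq start, for ribosomal protein genes without paralogs (n = 59), ribosomal protein paralogs (n = 8) and all genes with a start window (n = 27305). The bars for a TOP tract at the start stand at 74.6%, 25% and 5.14%, and those for the RUNX core motif at 20.3%, 12.5% and 15.6%.

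Detection (a deposited p below 0.05) was reached by 18096 to 19321 probes per RUNX1 array and by 18405 to 19080 probes per MCS array. Of 9 HEK-293T marker genes with a probe, 8 were detected on at least 3 arrays, and PAX2 was not. Of the other cell types, 2 of 5 blood markers (CD14 and CD34), 1 of 5 fibroblast markers (LUM) and 0 of 4 endothelial markers reached that limit. RUNX1 itself was not measured above background: none of its 3 probes was detected on a RUNX1 array, and 1 of 18 signals over the 6 arrays passed. Where its probes lie relative to the lentiviral insert was not examined, so they do not check the labels. The first principal component of all genes tested held 66.7% of the variance and set RUNX1 replicates 1 and 2 and MCS replicate 1 (scores -21.1, -21.3 and -25.6) apart from RUNX1 replicate 3 and MCS replicates 2 and 3 (26.6, 15.0 and 26.4). This separation crossed the labels, and with no chip or position known its source was not tested.

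Of the 79 genes, 75 had a probe detected on at least 3 arrays and were tested among 11129 genes, each by its brightest such probe. Of these 75 genes, 74 were detected on all 6 arrays and RPL10L on 5. The probes were bright: the mean intensity over 6 arrays had a median of 25419, 50 genes lay above 10000, 22 between 1000 and 10000 and 3 under 1000. The 4 genes not tested were RPL10, RPL3L, RPS4Y1 and RPS4Y2. RPL10, which joins the large subunit late and helps to form its catalytic centre, had 2 probes that were detected on 0 arrays, with intensities of at most 111. The highest intensities of RPL3L, known as a muscle form of RPL3, and of RPS4Y1 and RPS4Y2, the Y-linked forms of RPS4X, were 137, 141 and 135, and each was detected on 2 arrays. A probe at background says only that this probe gave no signal. The genes of this family have many near-identical processed copies in the genome, and what each probe captures was not tested.

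Many of the probes lay in the upper part of the intensity range of their array. A probe was counted as near saturation on an array where it reached at least 50% of the highest intensity on that array. That highest intensity was 58708 to 60041 on the RUNX1 arrays and 61356 to 62881 on the MCS arrays. The cut is a loose one and does not show that a probe had reached the scanner's limit. It was met by 182 probes of the whole table on at least 1 array. Of these, 38 were ribosomal protein probes, and 30 of these 38 were near saturation on all 6 arrays. By gene, 34 of the 75 brightest probes were near saturation somewhere, 26 of them on all 6 arrays. The number of such genes per array was 30, 27 and 32 with RUNX1, against 29, 33 and 29 with MCS, so the groups overlapped. Ribosomal protein probes took 7.54, 7.84 and 8.21% of the summed intensity on the RUNX1 arrays and 7.56, 7.71 and 7.87% on the MCS arrays, which also overlapped.

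None of the 75 genes passed the test between RUNX1 and MCS cells. With limma and Benjamini-Hochberg adjustment over 11129 genes, 0 of 75 were called (0% of all genes were called), the smallest unadjusted p was 0.141 and every adjusted p was 1.00. At an unadjusted p under 0.05 there were 0 of 75 ribosomal protein genes, by limma and by the methods' t-test alike, beside 251 of all genes (2.26%) by limma. The log2 differences, RUNX1 minus MCS, ran between -0.50 and 0.30 with a median of 0.033, beside a median of 0.021 over all genes tested. Of the 75 differences 59 were smaller than 0.1 in size and 3 were larger than 0.2, those of RPL8, RPL39L and RPS27L. The 95% interval lay within 1 log2 unit of 0, so without a 2-fold change in signal, for all 41 genes whose probe was never near saturation, and within 0.5 for 36 of them. Of the 34 genes near saturation on some array, 33 also had intervals within 1 unit, and RPL8 did not, but for these probes the interval bounds the signal and how far it bounds the mRNA was not tested.

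**Figure D2:**
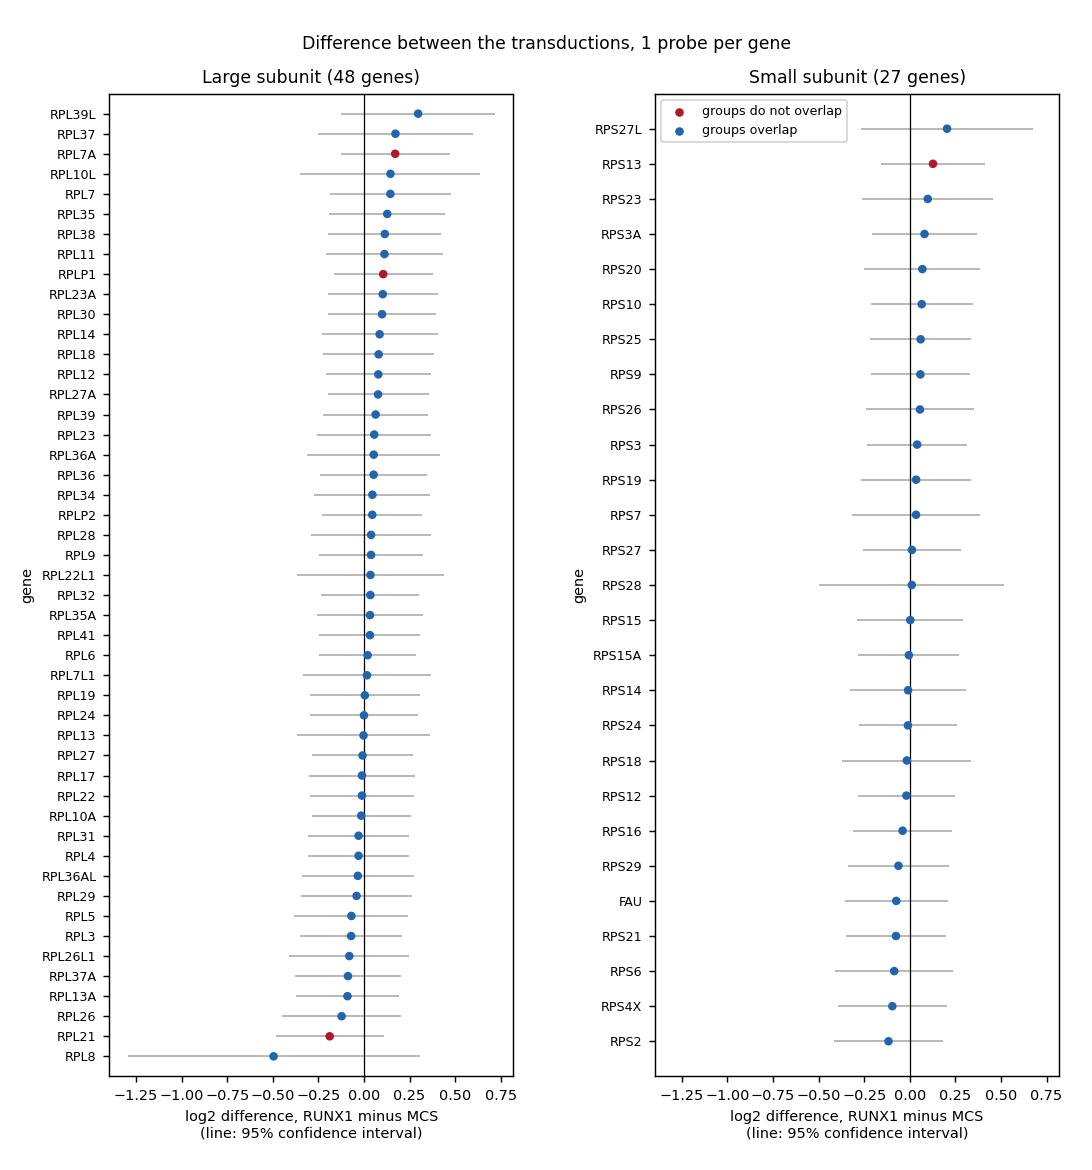
Log2 difference, RUNX1 minus MCS, of the 48 large subunit genes and 27 small subunit genes tested, with the 95% confidence interval as a line. Every interval covers 0, that of RPL8 is the widest, and the 4 red points (RPL7A, RPS13, RPLP1, RPL21) are genes whose groups do not overlap.

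How many genes lay on either side of 0 depended on the scaling of the arrays. After quantile normalization 45 of the 75 genes were higher and 30 lower with RUNX1, after median scaling 63 were higher and 12 lower, and with no normalization 9 were higher and 66 lower. Without normalization the median of all genes tested also moved, to -0.17, and the ribosomal protein genes lay 0.079 above it. With median scaling their median was 0.12 while that of all genes was -0.033. No direction of the family as a whole can be given from these arrays.

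The median SD of a ribosomal protein gene over the 6 arrays was 0.0956 log2 units, against 0.106 over the 26 translation factors and other genes with TOP mRNAs that were tested and 0.215 over all genes tested, and the median SD within a group was 0.0979, against 0.217. Brightness moved with this measure: the median SD was 0.0719 for the 34 genes near saturation on some array and 0.123 for the 41 that never were, and the part of brightness in the smaller spread was not tested. The large subunit had a median SD of 0.103 and the small subunit 0.0885. The correlation of the members' values between arrays was 0.994 to 0.998 within groups and 0.993 to 0.998 between RUNX1 and MCS arrays, a description over 75 probes that share their array. On the first principal component the mean size of a ribosomal protein gene's loading was 0.345 times that of all genes.

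**Figure D3:**
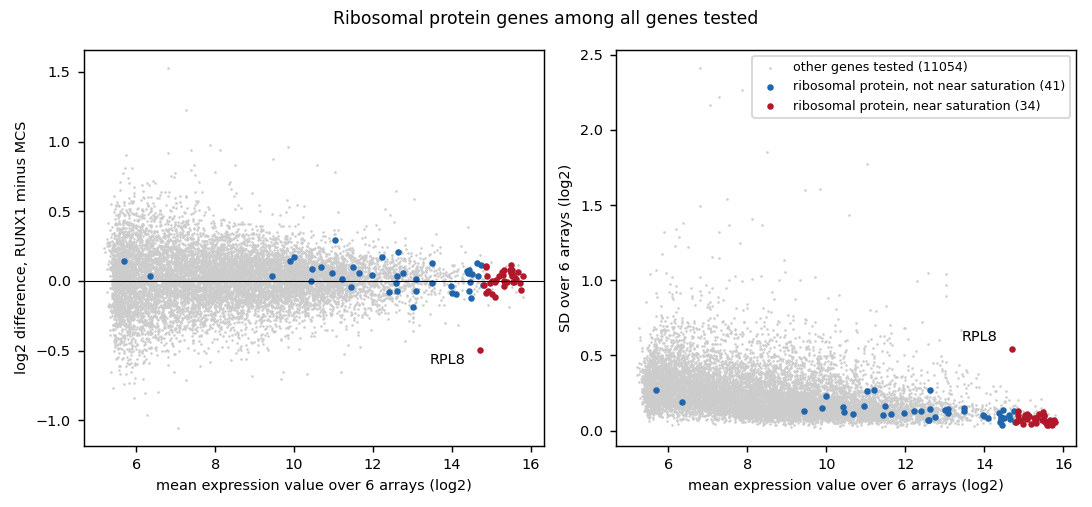
Log2 difference, RUNX1 minus MCS (left), and SD over the 6 arrays in log2 units (right), against the mean log2 value of each gene, with 41 ribosomal protein genes not near saturation (blue) and 34 near saturation (red) over the other genes tested (grey). The ribosomal protein genes lie mostly at the bright end with small differences and small SDs, and RPL8 stands out on both axes.

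The median of the members' deviations from their own means was -0.011, 0.0028 and 0.048 on RUNX1 replicates 1 to 3, and 0.019, -0.019 and -0.011 on MCS replicates 1 to 3. RUNX1 replicate 3 was the array with the highest value for 27 of the 75 genes, and MCS replicate 1 for 20. On RUNX1 replicate 3, 49 genes lay above their own mean, and on MCS replicate 3 this was 27. Without RUNX1 replicate 3 the median log2 difference of the members was 0.0037, beside 0.039 for all genes. The small positive median therefore rested on this array.

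**Figure D4:**
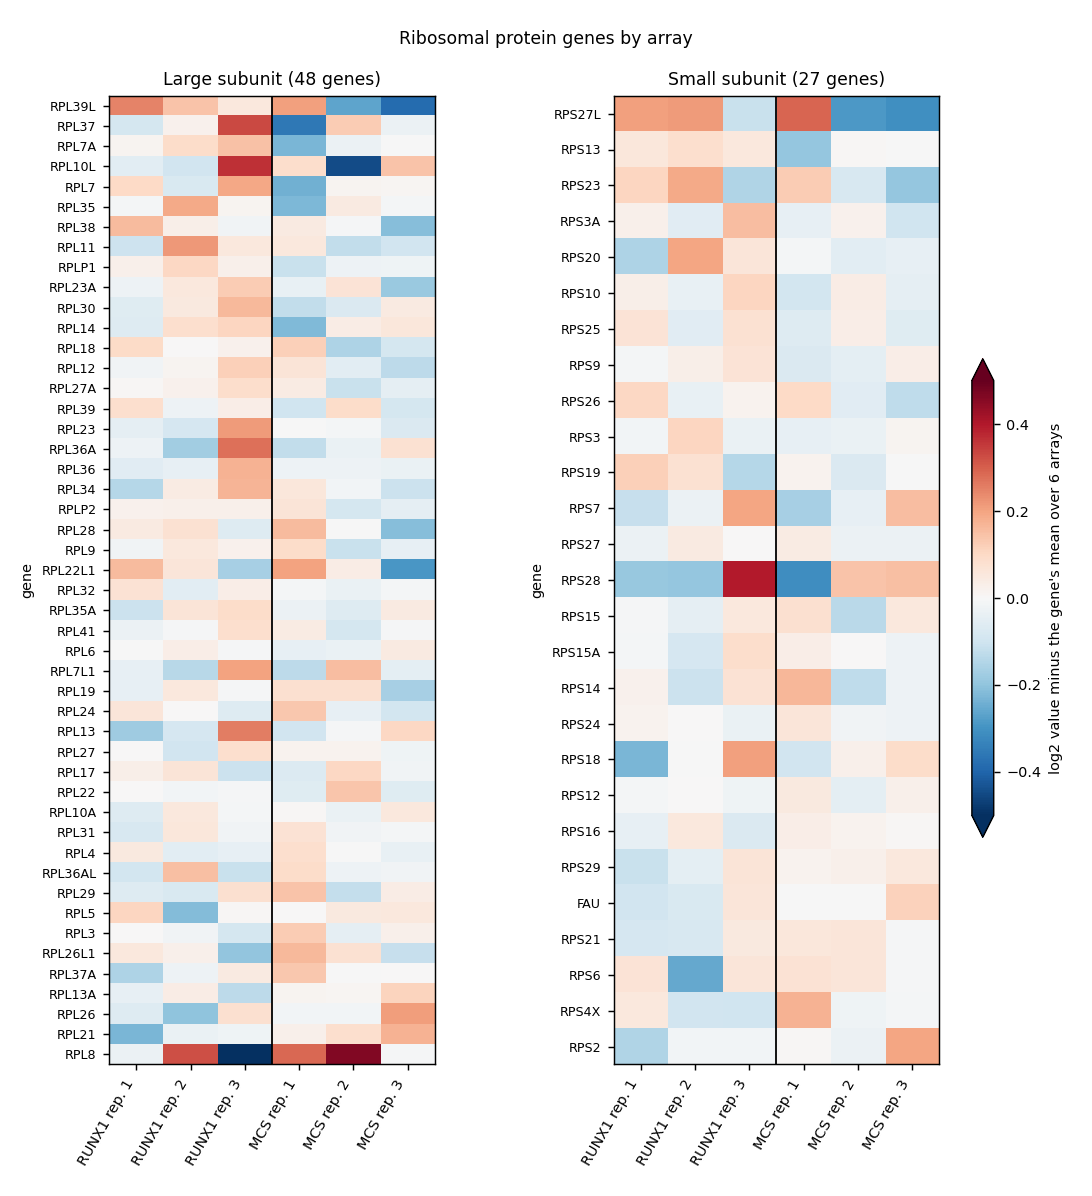
Log2 value of each gene minus its own mean over the 6 arrays, by array, for 48 large subunit genes and 27 small subunit genes sorted by the difference between the groups. Most cells are pale, the 3 RUNX1 columns do not form a block against the 3 MCS columns, and the deepest cell is RPL8 on RUNX1 replicate 3.

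The 3 RUNX1 arrays lay all above or all below the 3 MCS arrays in 4 of the 75 genes (5.33%), beside 6.56% of all genes tested: 3 were higher with RUNX1 (3.81% of all genes) and 1 was lower (2.75% of all genes). RPL7A, a large subunit protein, had log2 values of 12.24, 12.32 and 12.37 with RUNX1, against 12.00, 12.20 and 12.22 with MCS. The lowest RUNX1 array was just above the highest MCS array. The means were 12.31 ± 0.0672 and 12.14 ± 0.124 (SD, n = 3 each), a difference of 0.17 (95% interval -0.13 to 0.47; limma unadjusted p = 0.219). Without normalization the difference was 0.0087, and without MCS replicate 1 it was 0.10.

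RPS13, a small subunit protein, had 14.68, 14.71 and 14.68 with RUNX1, against 14.43, 14.63 and 14.62 with MCS. The RUNX1 arrays lay within a narrow band above all MCS arrays, of which replicate 1 was the lowest. The difference was 0.13 (95% interval -0.16 to 0.41). It was 0.0054 without normalization, 0.23 with median scaling and 0.062 without MCS replicate 1. RPLP1, an acidic protein of the stalk that recruits elongation factors to the ribosome, had 14.89, 14.97 and 14.89 with RUNX1 and 14.75, 14.84 and 14.84 with MCS. The difference of 0.11 (95% interval -0.17 to 0.38) came from a probe that was near saturation on 3 arrays. It was 0.0082 without normalization and 0.23 with median scaling. Its other probes differed by 0.060 and 0.20, and in both the groups overlapped. RPLP2, the partner of RPLP1 in the stalk, had 15.56 on each RUNX1 array, against 15.61, 15.45 and 15.50 on the MCS arrays, a difference of 0.045.

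RPL21, a large subunit protein, was the gene without overlap on the lower side. It had 12.77, 12.97 and 12.98 with RUNX1, against 13.02, 13.08 and 13.18 with MCS. The means were 12.91 ± 0.116 and 13.09 ± 0.0759 (SD, n = 3 each), a difference of -0.19 (95% interval -0.49 to 0.11; limma unadjusted p = 0.178). The difference kept its sign in all 20 alternatives, between -0.34 and -0.12. In the deposited intensities, before normalization, the groups of RPL21 did not overlap either. For RPL7A, RPS13 and RPLP1 the groups overlapped in these intensities.

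The largest difference of any member was that of RPL8, a large subunit protein that lies beside the catalytic centre of the ribosome. Its brightest probe had log2 values of 14.69, 15.04 and 13.67 with RUNX1, against 15.00, 15.18 and 14.71 with MCS. RUNX1 replicate 3 alone was far below the rest, and RUNX1 replicate 2 was above MCS replicates 1 and 3. On the scanner's scale the intensities were 25532, 30605 and 13566 with RUNX1 and 31548, 40739 and 27082 with MCS. The means were 14.47 ± 0.708 and 14.96 ± 0.238 (SD, n = 3 each), a difference of -0.50 (95% interval -1.30 to 0.31; limma unadjusted p = 0.188). Without RUNX1 replicate 3 the difference was -0.10.

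The second RPL8 probe did not show this pattern. It had 9.94, 10.31 and 10.63 with RUNX1, against 10.29, 10.26 and 10.54 with MCS. RUNX1 replicate 3, the lowest array for the first probe, was the highest for the second, and the difference was -0.073. RPL8 also had the largest SD over the 6 arrays among the members, 0.545. The next were RPL10L and RPS28, with SDs of 0.273 and 0.272, and RPS27L.

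RPL10A, the protein of the large subunit's L1 stalk, had probes that differed in their group difference. Its brightest probe, near saturation on all 6 arrays, had 14.91, 15.02 and 14.96 with RUNX1, against 14.98, 14.94 and 15.02 with MCS, a difference of -0.015. Its second probe, never near saturation, had 11.99, 12.03 and 12.21 with RUNX1, against 12.40, 12.56 and 12.56 with MCS. All RUNX1 arrays lay below all MCS arrays for this probe, with a difference of -0.43 (95% interval -0.74 to -0.12). In the limma fit over 18867 probes its unadjusted p was 0.0136 and its adjusted p was 1.00, so it was not called. Over the alternatives its difference ran between -0.56 and -0.38 and its adjusted p between 0.526 and 1.00.

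RPL32, a large subunit protein, had 4 probes. The brightest differed by 0.034 and the faintest by -0.0093. The second had 8.84, 8.82 and 8.64 with RUNX1, against 8.85, 9.11 and 8.95 with MCS, without overlap and with a difference of -0.20. The third had 8.08, 8.32 and 9.34 with RUNX1, against 7.98, 8.71 and 9.49 with MCS. It was lowest on RUNX1 replicates 1 and 2 and MCS replicate 1.

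Over all probes of the family, 122 of 129 were tested, 0 were called (0% of the 18867 probes tested were called), and 1, the second RPL10A probe, had an unadjusted p under 0.05, beside 2.92% of all probes. The groups did not overlap for 7 of the 122 probes (5.74%, with 4 higher and 3 lower), beside 7.51% of all probes. Of the 35 genes with several tested probes, 18 had differences of 1 sign and 17 had differences of both signs. The median range between probes of a gene was 0.087 log2 units, which is of the size of most of the differences between the groups.

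**Figure D5:**
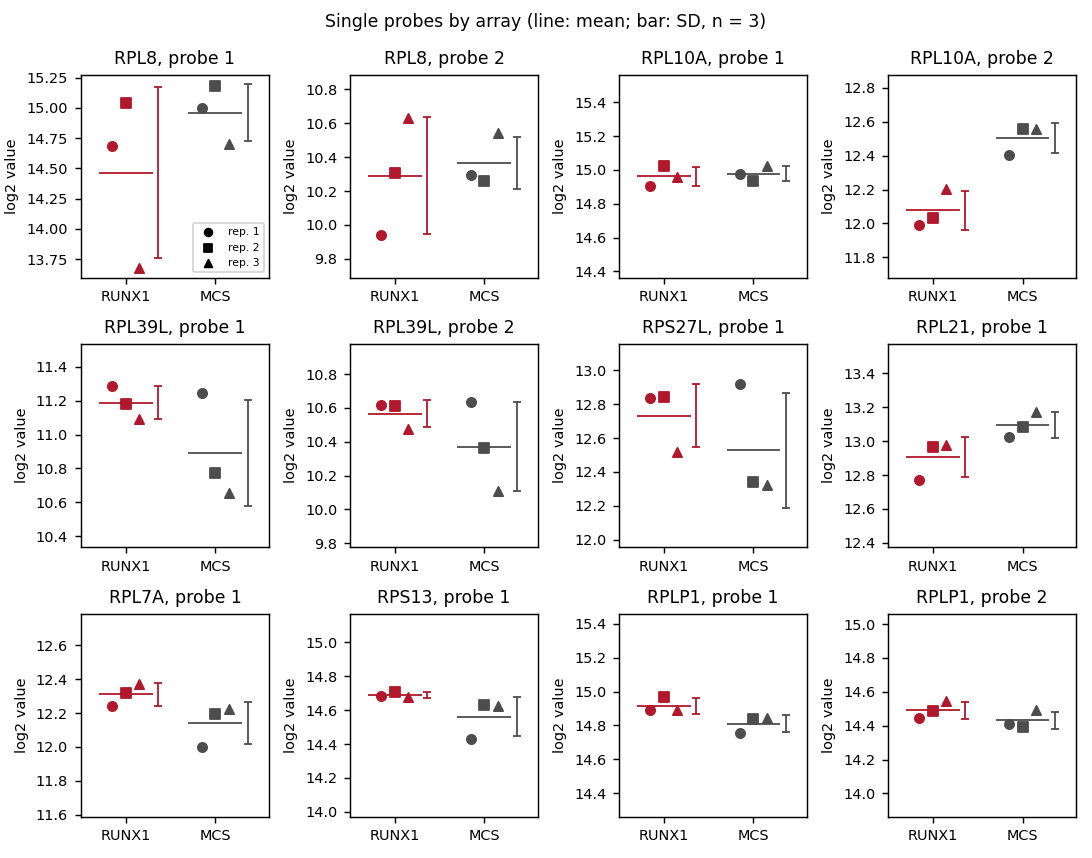
Log2 values of 12 single probes by array (circle, square and triangle for replicates 1, 2 and 3), with the RUNX1 arrays in red left of the MCS arrays in grey, the mean as a line and the SD as a bar (n = 3). RUNX1 replicate 3 is low for the first RPL8 probe and not for the second, and the second RPL10A probe separates the groups while the first does not.

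Of the other members with the largest positive statistics, RPL7, a large subunit protein, had 9.99, 9.82 and 10.09 with RUNX1, against 9.65, 9.91 and 9.90 with MCS. The groups overlapped, and the difference was 0.14. On the negative side, RPS2, which lies near the mRNA entry channel of the small subunit, had 14.94, 15.08 and 15.08 with RUNX1, against 15.09, 15.06 and 15.28 with MCS, a difference of -0.12. RPL26, which also binds the mRNA of p53, had 14.41, 14.27 and 14.56 with RUNX1, against 14.46, 14.46 and 14.69 with MCS, also a difference of -0.12. RPL13A, known outside the ribosome for repressing inflammatory mRNAs in monocytes, had 14.06, 14.14 and 13.97 with RUNX1, against 14.12, 14.11 and 14.22 with MCS, a difference of -0.091. In all of these the groups overlapped.

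The brightest probes were those of RPL41, RPS29, RPS12, RPS10 and RPS27, whose mean intensities were between 50813 and 56977 and which were near saturation on all 6 arrays. RPL41, a very short protein of the large subunit, had 15.77, 15.80 and 15.89 with RUNX1, against 15.85, 15.72 and 15.80 with MCS. The differences of these 5 probes were 0.032 for RPL41, -0.062 for RPS29, -0.019 for RPS12, 0.065 for RPS10 and 0.012 for RPS27. All 5 were smaller than 0.1 in size, and whether the scanner's upper limit held them down was not tested. A second RPS29 probe, also near saturation on all 6 arrays, differed by 0.13.

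By the brightest probe of each gene, the steadiest members were RPS24 and RPL6. RPS24, a small subunit protein that is mutated in some Diamond-Blackfan families, had 14.47, 14.46 and 14.42 with RUNX1, against 14.51, 14.43 and 14.43 with MCS. Its SD over the 6 arrays was 0.0347 and its difference was -0.010, with a probe that was never near saturation. RPL6, a large subunit protein, had an SD of 0.0352 and a difference of 0.020, with a probe near saturation on all 6 arrays. Other probes of both genes were less steady. The second RPS24 probe had 12.64, 12.61 and 13.06 with RUNX1, against 12.69, 12.62 and 12.86 with MCS. The third RPL6 probe had 11.63, 11.73 and 11.29 with RUNX1, against 11.99, 11.34 and 11.31 with MCS.

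RPS28 was among the most variable members. This small subunit protein of the mRNA exit channel had 11.02, 11.02 and 11.61 with RUNX1, against 10.90, 11.36 and 11.36 with MCS. It was low on RUNX1 replicates 1 and 2 and MCS replicate 1, the arrays on the same side of the first principal component, and its difference between the groups was 0.011.

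The paralogs are second genes for some of these proteins, often with expression limited to certain tissues. Of 10 paralogs, 7 were tested. Their median difference was 0.035 and their median SD over the 6 arrays was 0.192. RPL39L, a form of RPL39 known from testis and from some cancer cells, had 11.29, 11.18 and 11.09 with RUNX1, against 11.24, 10.77 and 10.65 with MCS. MCS replicate 1 overlapped the RUNX1 arrays, and the other MCS arrays lay below them. The means were 11.19 ± 0.0983 and 10.89 ± 0.312 (SD, n = 3 each), a difference of 0.30 (95% interval -0.13 to 0.72), and its p of 0.141 by limma, unadjusted, was the smallest among the members. The difference was 0.11 without normalization, 0.47 without MCS replicate 1 and 0.18 without MCS replicate 3. Its second probe had 10.62, 10.61 and 10.47 with RUNX1, against 10.64, 10.36 and 10.11 with MCS, a difference of 0.20. MCS replicate 1 was again level with the RUNX1 arrays, and the other MCS arrays lay below. For both RPL39L probes RUNX1 replicates 1 and 2 and MCS replicate 1 were highest, the arrays on the same side of the first principal component. RPL39, its parent, a protein of the peptide exit tunnel, differed by 0.064.

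RPS27L, a form of RPS27 that is induced by p53, had 12.83, 12.84 and 12.52 with RUNX1, against 12.92, 12.34 and 12.32 with MCS. The highest of the 6 values was that of MCS replicate 1, and RUNX1 replicates 1 and 2 came next, which is again the side of the first principal component. The difference was 0.20 (95% interval -0.27 to 0.67). It was 0.045 without normalization, 0.31 without RUNX1 replicate 3 and 0.40, 0.11 and 0.10 without MCS replicates 1, 2 and 3. RPL22L1, the paralog of the RNA-binding protein RPL22, had 6.51, 6.42 and 6.19 with RUNX1, against 6.55, 6.39 and 6.06 with MCS, a difference of 0.035, and RPL22 differed by -0.012. RPL10L, a testis form of RPL10, was close to background, with 5.64, 5.60 and 6.06 with RUNX1, against 5.78, 5.25 and 5.84 with MCS. By their brightest probes the remaining paralogs differed by -0.081 (RPL26L1), -0.034 (RPL36AL) and 0.016 (RPL7L1). Their second probes had the opposite sign, at 0.13, 0.10 and -0.12 in the same order. For the second RPL36AL probe the groups did not overlap, as for 7.51% of all probes tested. The parents RPL36A, RPL3 and RPS4X differed by 0.053, -0.071 and -0.096.

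The genes best known from disease were also close to 0. Of the Diamond-Blackfan list, 13 genes were tested, with 0 called, a median difference of 0.012 and a range from -0.12 to 0.11. RPS19 had 15.63, 15.59 and 15.37 with RUNX1, against 15.53, 15.44 and 15.51 with MCS, near saturation on all 6 arrays and with a difference of 0.035. RPL5 had 13.20, 12.88 and 13.10 with RUNX1, against 13.09, 13.14 and 13.15 with MCS, a difference of -0.069. RPL11 had 14.64, 14.96 and 14.80 with RUNX1, against 14.79, 14.62 and 14.65 with MCS, a difference of 0.11. The 12 genes known to bind MDM2 had a median difference of 0.037. FAU, whose product is cut into a ubiquitin-like part and the ribosomal protein RPS30, had 14.33, 14.35 and 14.49 with RUNX1, against 14.43, 14.43 and 14.54 with MCS, a difference of -0.074.

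By subunit, the 48 large subunit genes had a median difference of 0.035, with 30 above and 18 below 0, and the 27 small subunit genes had a median of 0.011, with 15 above and 12 below. The groups did not overlap in 3 large subunit genes (6.25%) and in 1 small subunit gene (3.7%), beside 6.56% of all genes tested. The 34 genes near saturation on some array had a median difference of 0.0082, and the 41 others had a median of 0.039.

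Genes outside the family were examined from 3 lists, each gene by its brightest probe, and 0 genes of any list were called. VIM, SSR2, MYC and LARP4 had 2 tested probes each, and their second probes are not reported here. Of the 26 translation factors and other genes with TOP mRNAs tested, the median difference was 0.014 and the groups did not overlap in 2 (7.69%, beside 6.56% of all genes tested). EIF3F, a subunit of the initiation factor that loads the small subunit, had 11.81, 11.98 and 11.78 with RUNX1, against 11.69, 11.58 and 11.77 with MCS, a difference of 0.18. VIM, an intermediate filament protein, and SSR2, a protein of the translocon, had the next smallest p of this list and differed by -0.23 and -0.20, and in both the groups overlapped. Leaving out 1 array at a time gave -0.40 (without MCS replicate 1) to -0.13 (without MCS replicate 2) for VIM, and -0.33 (without MCS replicate 1) to -0.055 (without MCS replicate 3) for SSR2. The 17 chaperones and importers of ribosomal proteins had a median of -0.048, with 6 above and 11 below 0, and the groups did not overlap in 2 (11.8%). IPO9, an importer of RPS7 and other cargo, had 8.81, 8.99 and 9.07 with RUNX1, against 9.11, 9.58 and 9.41 with MCS, without overlap. Its difference was -0.41 (95% interval -0.79 to -0.03; limma unadjusted p = 0.0385, adjusted p = 1.00). IPO4, another importer, differed by -0.17, and PDCD2L, a relative of the RPS2 chaperone PDCD2, by 0.14.

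The third list held 22 tested regulators of ribosomal protein mRNAs, with a median difference of 0.013, and the groups did not overlap in 3 of them (13.6%, beside 6.56% of all genes tested). MYC, which raises transcription of ribosomal protein genes, had 11.23, 11.25 and 10.97 with RUNX1, against 11.57, 11.54 and 11.30 with MCS, a difference of -0.32 (95% interval -0.66 to 0.02). MYCN, its relative, had 6.50, 6.31 and 5.92 with RUNX1, against 5.85, 5.67 and 5.38 with MCS, a difference of 0.61 (95% interval 0.14 to 1.07; limma unadjusted p = 0.0171, adjusted p = 1.00). MYCN was faint and did not pass a stricter limit on detection, and its difference was 0.24 in the authors' processed values. LARP4, which protects the poly(A) tails of ribosomal protein mRNAs, had 6.64, 7.03 and 7.14 with RUNX1, against 5.52, 6.61 and 6.77 with MCS, a difference of 0.64 (limma unadjusted p = 0.0961). MCS replicate 1 was the lowest array, and without it the difference was 0.25.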

How the data were processed

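Per the labels and the study's methods, the authors amplified total RNA to biotin-labelled cRNA and hybridised it to the BeadChips. The deposited intensities are linear, without background subtraction or normalization, each beside a deposited detection p-value. A second table holds the authors' processed values, taken as log2 and made with lumi (version not given in the sources used here). Expression values were computed from the intensities with the neqc function (R 4.3.3, limma 3.58.1; background from the detection p-values, offset 16, quantile normalization, log2). Platform annotation gave 30113 of 47231 probes 1 symbol and 8 several, and left 17110 unnamed here. Probes with a detection p below 0.05 on 3 or more arrays were kept (18867), and the brightest per gene was tested (11129 genes) with lmFit and eBayes (7.19 degrees of freedom, 4 residual), without covariates, adjusted by Benjamini-Hochberg over all genes. Probes were also fitted singly. The test was checked on simulated data. The number of arrays limits the precision, and an exact permutation test of 3 against 3 cannot go below p = 0.1.

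The members and gene lists were chosen with earlier results of these data known. The members named are the 5 with the largest and 5 with the smallest moderated t, the 5 brightest, the 4 most and 2 least variable, the 3 whose probes differ most, the stalk, fusion and paralog genes with their parents, RPS19, RPL5, RPL11, every member not above background, and up to 3 genes per other list by smallest p. No paired arrays were identified: deviations of same-numbered arrays correlated at 0.568, -0.347 and 0.704. Alternatives were other background corrections, normalizations, filters, probe choices and tests, the authors' values, a replicate block, the first principal component as a covariate, and leaving out each array. Promoter and start sequences are from RefSeq (GRCh38.p14); those of 12 members were not used here.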

Additional observations from a re-analysis of the deposited data

How the results depend on the processing

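In all 20 alternatives 0 ribosomal protein genes and 0 genes overall were called, and 0 ribosomal protein probes were called in each alternative but the mean of a gene's probes, which has no fit by probe. At an unadjusted p under 0.05 there were 0 to 2 ribosomal protein genes, and 136 to 847 of all genes, with the highest number without MCS replicate 1 and 821 with the first principal component as a covariate. The median difference of the members moved to -0.088 without normalization and to 0.12 with median scaling. When each array was left out it lay between 0.0037 (without RUNX1 replicate 3) and 0.037. The count of ribosomal protein genes without overlap was 4 of 75 in the report, beside 6.56% of all genes. It was 10 of 75 without normalization (12.4% of all genes) and 10 of 75 with median scaling (5.54% of all genes). When an array was left out, where 2 arrays are set against 3, it was 10 to 12 of 75 (10.8 to 24.9% of all genes). With the replicate block, which the pairing check did not bear out, the median stayed at 0.033, 0 members were called and 1 had an unadjusted p under 0.05, beside 523 of all genes. The 95% interval reached beyond 1 log2 unit for at most 1 member, RPL8, in each alternative. Of the 48 named genes and probes, 19 kept their sign in every alternative and 29 did not. The cause of these changes was not tested. Probes near saturation may understate differences, which was not tested, probes of genes with near-identical copies may capture several RNAs, and 3 arrays per group cannot show small changes.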

Other observations

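Symbols of ribosomal protein pseudogenes, which the choice of genes left out, had 31 probes for 20 names, and 19 of these probes were detected on all 6 arrays. Several were as bright as the brightest members: both RPL13AP5 probes had mean intensities of 54573 and 56669, and a RPSAP9 probe had 52135. Whether such a signal comes from the pseudogene or from the parent mRNA cannot be told apart here. Of the 21 tested pseudogene probes 0 were called by limma and 0 had an unadjusted p under 0.05 (2.92% of all probes), the groups did not overlap in 2 (beside 7.51% of all probes), and the median log2 difference, RUNX1 minus MCS, was -0.042 (range -0.29 to 0.12).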
